A study of Mus musculus with 10 samples.

Results

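*Cux1* and *Cux2* are the paralogous genes of the Cux family of transcription factors, and both were counted in RNA of the laser-captured cortical hem (CH). They were found by symbol, each matched a single row, and they made up 2 of the 52227 genes in the table. Both passed the filter, a minimum of 10 counts in 3 or more libraries, and were among the 21664 genes tested. The Cux proteins bind DNA through CUT repeats and a homeodomain. Cux1, also called CCAAT displacement protein, is made in many dividing and differentiating cells, where it can repress or activate its targets and is cut to a shorter form by the protease cathepsin L. Cux2 is more restricted to the nervous system and is known from cortical intermediate progenitors and upper-layer neurons, in which both paralogs shape dendrites and synapses. In the mouse *Cux2* is also expressed in the CH, the signaling center at the edge of the cortex that makes Wnt and Bmp ligands and Cajal-Retzius (CR) cells, and an enhancer of *Cux2* responds to the LIM-homeodomain factor Lmx1a.

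The libraries came from 5 wild-type embryos and 5 *Lmx1a-/-* embryos at e13.5. The mutants were homozygous for *drJ*, a point mutation that leaves an inactive Lmx1a protein, and the mice had a mixed background of C57Bl6, FVB and CD1. CH was cut out of cryosections by laser, with its borders read from Lmx1a immunostaining of every second section, and the sections of an embryo were pooled into 1 library. No treatment was given, and the *Lmx1a* genotype was the only labelled difference between the groups.

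*Cux1* (ENSMUSG00000029705) lies on the minus strand at chr5:136248135-136567490 and *Cux2* (ENSMUSG00000042589) on the minus strand at chr5:121856366-122050102 of GRCm38. *Cux1* spans 319.4 kb with 14 annotated transcripts, and its exons merge to 20.024 kb. Some of those transcripts encode CASP, a Golgi protein with no CUT repeat, so a gene count of *Cux1* adds the mRNAs of different proteins. *Cux2* spans 193.7 kb with 11 transcripts and 10.082 kb of merged exons. The start regions are shown because the paralogs differed in their change between genotypes and are transcribed from separate promoters. They are the RefSeq windows of GRCm38.p6 from 250 bases before to 50 bases after a start, written 5′ to 3′ on the minus strand. The first is chr5:136565932-136566231 for *Cux1*. The second is chr5:122049802-122050101, at the outer RefSeq start of *Cux2*, and the third is chr5:122047776-122048075, at its inner RefSeq start. All of these windows lie inside the gene spans given above, so the sequence before the outermost annotated start of each gene is not shown. Capitals mark ATTA, the core read by many homeodomains, those of the Lmx1 type included (searched as TAAT on both strands), and ATCGAT, a core known for Cux proteins that reads alike on both strands.
Cux1 start: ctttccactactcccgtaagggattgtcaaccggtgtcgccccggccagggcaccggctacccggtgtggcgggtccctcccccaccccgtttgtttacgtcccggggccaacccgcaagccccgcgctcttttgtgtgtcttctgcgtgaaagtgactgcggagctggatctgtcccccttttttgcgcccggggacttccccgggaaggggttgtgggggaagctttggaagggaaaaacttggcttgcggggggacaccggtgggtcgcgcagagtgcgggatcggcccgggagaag
Cux2 outer start: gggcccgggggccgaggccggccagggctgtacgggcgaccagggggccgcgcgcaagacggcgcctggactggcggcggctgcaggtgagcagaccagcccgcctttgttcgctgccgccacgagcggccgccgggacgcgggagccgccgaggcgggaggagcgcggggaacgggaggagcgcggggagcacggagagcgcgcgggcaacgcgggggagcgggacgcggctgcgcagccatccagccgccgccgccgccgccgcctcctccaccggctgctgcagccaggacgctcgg
Cux2 inner start: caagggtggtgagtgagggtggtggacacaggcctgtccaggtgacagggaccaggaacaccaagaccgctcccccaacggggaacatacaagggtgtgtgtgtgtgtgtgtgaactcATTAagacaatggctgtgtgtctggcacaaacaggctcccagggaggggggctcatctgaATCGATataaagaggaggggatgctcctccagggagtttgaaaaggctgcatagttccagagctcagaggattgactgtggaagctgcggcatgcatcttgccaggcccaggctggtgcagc
The *Cux1* and outer *Cux2* windows held neither set of letters and had a GC content of 65% and 80.3%. The inner *Cux2* window had a GC content of 56.7% and held ATTA at base 119 and ATCGAT at base 179, which do not overlap. Over the 32851 RefSeq windows of this length, the median GC content was 52.7%, 58% held TAAT on either strand and 0.925% held ATCGAT. A match is a description of the letters and not a binding site.

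Library totals lay between 19145952 and 36462780 counts. *Lmx1a* mRNA was still made in the mutants, at 114 ± 21.0 normalized CPM (CPM are counts scaled to a common library size; SD, n = 5) against 71.2 ± 18.2 (SD, n = 5) in wild type. Y-linked transcripts were present in wild-type embryo 1 and in all 5 mutants, while wild-type embryos 2 to 5 expressed *Xist*, so genotype and sex largely moved together. CH marker genes were abundant in both genotypes, with a summed level of 12 genes between 2280 and 4330 normalized CPM in wild type and between 2763 and 3897 in the mutants.

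*Cux2* fell in the *Lmx1a-/-* CH and *Cux1* did not pass the test. In wild-type embryos 1 to 5 *Cux2* stood at 76.8, 98.3, 37.3, 51.3 and 85.2 normalized CPM, and in *Lmx1a-/-* embryos 1 to 5 at 16.1, 18.7, 37.6, 25.8 and 21.8. Of the mutants 4 lay below every wild-type embryo, and mutant embryo 3 lay just above wild-type embryo 3, so the genotypes overlapped by that pair. The means were 69.8 ± 25.0 and 24.0 ± 8.42 normalized CPM (SD, n = 5 each). The log2 fold change was -1.54 (SE 0.27, 95% confidence interval -2.12 to -0.96), a mutant level 0.344 times that of wild type (interval 0.23 to 0.515). It passed edgeR's quasi-likelihood test across all tested genes with an FDR of 0.00946, and 2.23% of those genes had a lower fold change. The counts behind these levels ran from 344 to 2307 per library.

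*Cux1* was the more abundant paralog, and its level varied little among embryos. It stood at 357, 420, 365, 412 and 378 normalized CPM in wild-type embryos 1 to 5 and at 337, 362, 321, 402 and 404 in *Lmx1a-/-* embryos 1 to 5. The ranges overlapped over most of their length, with 2 mutants below the lowest wild-type embryo and none above the highest. The means were 386 ± 28.1 and 365 ± 37.4 normalized CPM (SD, n = 5 each), with a log2 difference of -0.08 between genotypes (SE 0.081) that missed the threshold of edgeR's test (FDR 0.679). Its 95% confidence interval, -0.25 to 0.10, corresponds to a mutant level between 0.838 and 1.07 times that of wild type. A fall of the size seen for *Cux2* lay outside this interval, and depth was not the limit, since no library had fewer than 6663 counts of *Cux1*. The sign of the *Cux1* difference turned with the *Xist* level as a covariate (0.04, FDR 0.964) and among Y-positive libraries alone (0.03, FDR 0.977), so no direction is given for it. Thus 1 of the 2 paralogs passed the threshold, beside 870 of all tested genes (4.02%), 497 of which were lower (2.29%) and 373 higher (1.72%). Neither paralog was among the 961 genes (4.44%) whose genotypes did not overlap.

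**Figure D1:**
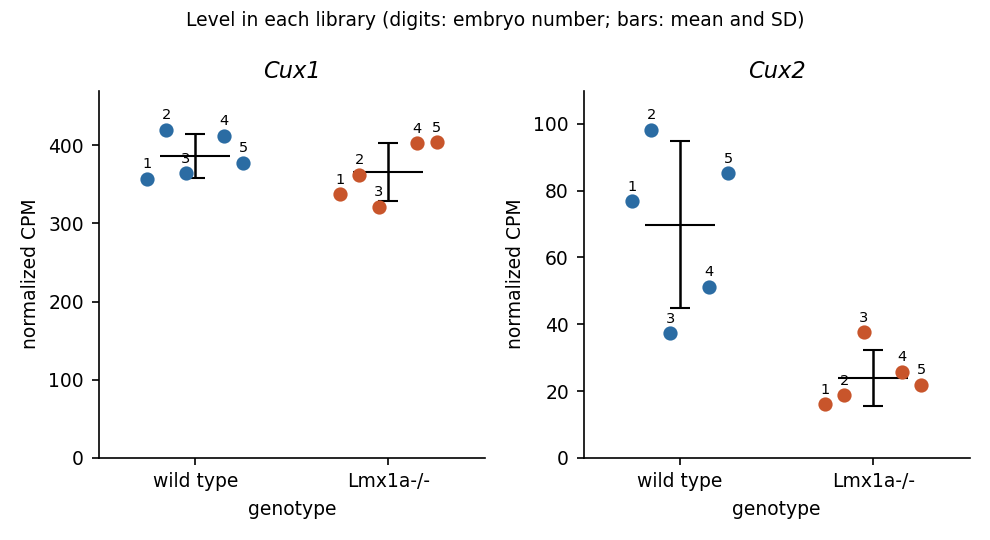
Normalized CPM of *Cux1* (left) and *Cux2* (right) in each library, with both vertical axes starting at 0. Points are embryos, numbered, and bars are the mean and SD of 5 embryos; the *Cux1* levels of the genotypes overlap, while *Cux2* overlaps at wild-type embryo 3 (37.3) and mutant embryo 3 (37.6) alone.

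To compare the paralogs directly, the *Cux2* count was divided by the *Cux1* count of the same library, which removes the scaling between libraries. On the log2 scale this ratio was -2.22, -2.09, -3.29, -3.01 and -2.15 in wild-type embryos 1 to 5 and -4.39, -4.27, -3.09, -3.97 and -4.21 in mutant embryos 1 to 5. Mutant embryo 3 lay above wild-type embryo 3 and below the other wild-type embryos. The mean ratio was -2.55 ± 0.555 in wild type and -3.99 ± 0.522 in the mutants (SD, n = 5 each). The difference of -1.44 had p = 0.0159 in an exact two-sided permutation test over the 252 ways to split the libraries, where the smallest p possible is 0.00794. The change between genotypes therefore differed between the paralogs by more than the spread between embryos. Genotype and sex largely moved together, so their parts in this difference cannot be told apart. Paired by embryo number, 4 of 5 differences were negative (p = 0.125, exact sign-flip test, smallest possible p 0.0625).

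Expressed as a share, *Cux2* supplied 17.7%, 19.0%, 9.29%, 11.1% and 18.4% of the summed counts of the pair in wild-type embryos 1 to 5. In the mutants it supplied 4.55%, 4.91%, 10.5%, 6.01% and 5.13%. The mean share went from 15.1 ± 4.55% to 6.22 ± 2.44% (SD, n = 5 each). Wild-type embryos 3 and 4 and mutant embryo 3 formed the middle of the range, from 9.29% to 11.1%.

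**Figure D2:**
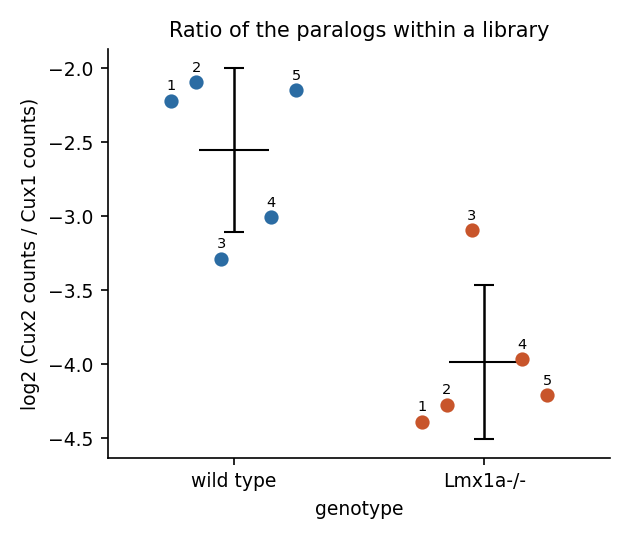
Log2 ratio of *Cux2* to *Cux1* counts within each library, with numbered embryos as points and the mean and SD of 5 embryos as bars. Mutant embryos other than embryo 3 lie between -4.39 and -3.97, below all wild-type embryos, whose lowest value is -3.29.

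Levels of different genes were compared only after division by exon length. In wild type *Cux1* stood at 19.3 ± 1.41 normalized CPM per kb of merged exons and *Cux2* at 6.92 ± 2.48 (SD, n = 5 each), at the 91.8th and 74.6th percentile of tested genes. In the mutants *Cux1* stood at 18.3 ± 1.87 and *Cux2* at 2.38 ± 0.835 normalized CPM per kb. Per kb, *Cux1* exceeded *Cux2* by 2.34, 2.15, 4.92, 4.05 and 2.23 times in wild-type embryos 1 to 5 and by 10.6, 9.75, 4.3, 7.87 and 9.31 times in the mutants. *Cux1* was thus the higher paralog in all 10 libraries. The CASP transcripts enter the *Cux1* value in both directions, since their reads add to the count and their exons to the length, so the excess of transcripts that encode the CUT protein may be larger or smaller.

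The other CUT-class genes include the Onecut factors, which act in liver, retina and spinal neurons, and the chromatin organizer Satb1. Of the 7 genes on the CUT-class list 5 were tested, and *Cux2* was the 1 that passed, beside 4.02% of all tested genes. *Satb1* was at 172 ± 10.2 normalized CPM in wild type and 176 ± 12.3 in the mutants (log2 fold change 0.04, SE 0.071, 95% interval -0.11 to 0.19, edgeR FDR 0.844; -0.00389 without mutant embryo 2). *Onecut2* was at 22.7 ± 4.54 and 28.2 ± 5.81 (0.31, SE 0.16, edgeR FDR 0.372). *Onecut1* and *Onecut3* had at most 24 and 23 counts in a library and were not tested.

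Per kb of merged exons, *Cux1* (19.3 normalized CPM) stood highest in wild type, followed by *Satb1* (9.02 ± 0.535), *Cux2* (6.92) and *Onecut2* (1.40 ± 0.280). *Cux1* and *Satb1* stood apart by more than their SD, as did *Cux2* and *Onecut2*, whereas *Cux2* lay within 1 SD of *Satb1*. In the mutants these genes kept that order, with *Cux1* at 18.3, *Satb1* at 9.26 ± 0.647, *Cux2* at 2.38 and *Onecut2* at 1.73 ± 0.358 normalized CPM per kb. There *Cux2* was well below *Satb1* and could not be separated from *Onecut2* by their SD.

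**Figure D3:**
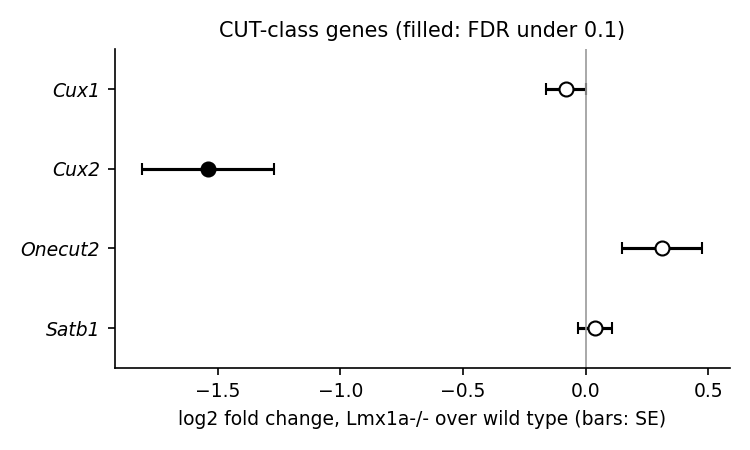
Log2 fold change of 4 CUT-class genes in *Lmx1a-/-* over wild-type CH, with bars of 1 SE. The point of *Cux2* (-1.54) is filled because its FDR was under 0.1, and the open points of the others lie between -0.08 and 0.31.

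A list of 12 genes known to process, assist or respond to Cux proteins was read next. Of the 11 tested, 1 was lower and 1 was higher, beside 2.29% and 1.72% of all tested genes. The median log2 fold change was 0.15, beside -0.00494 over all tested genes. *Cdkn1a*, which encodes the cell cycle inhibitor p21 and is a target that Cux1 represses, stood at 276, 228, 170, 169 and 227 normalized CPM in wild-type embryos 1 to 5 and at 138, 89.0, 132, 46.7 and 34.1 in the mutants. All mutants lay below all wild-type embryos, as for 2.27% of all tested genes (491). Its log2 fold change was -1.28 (SE 0.33, edgeR FDR 0.0631), and the call was lost without any 1 of wild-type embryos 1, 2 or 5 or mutant embryos 2 or 4 (edgeR FDR 0.102 to 0.141).

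*Tle4*, which encodes a Groucho-type corepressor, rose from 83.7 ± 11.5 to 114 ± 16.4 normalized CPM (log2 fold change 0.44, SE 0.11, edgeR FDR 0.0631). Its genotypes overlapped, since the lowest mutant embryos stood at 101 and the highest wild-type embryo at 103. The call was lost without wild-type embryo 1, 2 or 5 or mutant embryo 2 (edgeR FDR 0.11 to 0.143) and with embryo numbers as a block (0.137). The other tested genes of the list did not pass. They included *Ctsl*, the cathepsin that cuts Cux1 (log2 fold change 0.24, edgeR FDR 0.249), and *Ncam1*, an adhesion molecule under Cux control (0.52, edgeR FDR 0.213). The cell cycle inhibitor gene *Cdkn1b* (-0.08, edgeR FDR 0.829) and the cyclin gene *Ccna2* (-0.10) also missed the threshold, and *Xlr4b*, a target of the paralogs in spine formation, was too low to test.

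Markers of the cells known for Cux2 were then examined. None of 10 intermediate progenitor genes passed edgeR's quasi-likelihood test (median log2 fold change -0.08). At an unadjusted p under 0.05 the count was 2, beside 3545 of all 21664 tested genes. It was 1 with the likelihood ratio test and 2 with DESeq2, beside 1360 and 1766 of all tested genes. When wild-type embryo 3 or 4 or mutant embryo 1 was left out, 1 or 2 passed, in fits in which 991, 640 and 896 of all genes passed. *Eomes*, which encodes the T-box factor of these progenitors, was at 88.9 ± 23.4 normalized CPM in wild type and 62.5 ± 9.45 in the mutants (log2 fold change -0.51, SE 0.16, edgeR FDR 0.129). Of 10 upper-layer neuron genes none passed (median -0.13), with the same counts at an unadjusted p and by the other tools, and 2 passed when wild-type embryo 3 was left out. *Lmo4*, a LIM-only cofactor gene of upper layers, had a log2 fold change of -0.95 (edgeR FDR 0.145). Its wild-type embryo 4 stood far above the others, at 47.8 normalized CPM with 22.9 in the next highest. *Bhlhe22* went the other way, from 3.90 ± 1.73 to 6.92 ± 2.05 normalized CPM (0.82, SE 0.30, edgeR FDR 0.193). The log2 fold change was negative in 7 of the 10 upper-layer genes. Within genotypes, the summed level of the upper-layer list, on the log2 scale, moved against *Cux2* (r of deviations from the genotype means -0.59 over 10 libraries).

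Of the CR cell genes 11 were tested, and 3 were lower and 1 higher, beside 2.29% and 1.72% of all tested genes. None passed with the *Xist* level or the choroid plexus list as a covariate, in fits in which 27 and 37 of all genes passed. *Trp73*, the p53 relative of hem-derived CR cells, fell from 82.1 ± 17.5 to 45.6 ± 9.74 normalized CPM (log2 fold change -0.85, edgeR FDR 0.0208). *Reln*, which encodes the secreted guide of cortical layering, fell by 1.06 on the log2 scale (edgeR FDR 0.0308), and the LIM-homeobox genes *Lhx1* and *Lhx5* moved apart (-1.36, edgeR FDR 0.0210, and 1.86, edgeR FDR 0.0324). The median log2 fold change of the list was -0.17. Within genotypes *Cux2* deviated with the list at r = 0.41 and *Cux1* against it at r = -0.55 (10 libraries each).

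Of the 12 CH genes 4 were lower and 1, *Lmx1a* itself, was higher, beside 2.29% and 1.72% of all tested genes. None passed with the *Xist* level or the choroid plexus list as a covariate. The lower genes included *Wnt2b* (log2 fold change -1.02, edgeR FDR 0.0120) and *Bmp7* (-0.91, edgeR FDR 0.0228), which encode secreted signals. The median log2 fold change of the CH list was -0.39. Between 2 and 7 of its genes passed when an embryo was left out, with the count at 2 when wild-type embryo 1 was dropped and at 3 when wild-type embryo 4 or mutant embryo 4 or 5 was. The *Lmx1a* call (log2 fold change 0.68, edgeR FDR 0.0658) was lost without wild-type embryo 1 or 4 or mutant embryo 4 or 5, with FDR up to 0.157, and with embryo numbers as a block (0.136).

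Within genotypes, and of all lists examined, *Cux2* moved most closely with that of the choroid plexus, the secretory epithelium that borders the CH. The summed level of 14 tested choroid plexus genes was 1314, 1697, 450, 912 and 1593 normalized CPM in wild-type embryos 1 to 5 and 364, 353, 590, 602 and 484 in the mutants. Wild-type embryo 3 was the lowest of its genotype in both the sum and *Cux2*, and mutant embryo 3 was second highest of its own in the sum and highest in *Cux2*. Of the 14 genes 5 were lower and none higher, beside 2.29% and 1.72% of all tested genes. Their median log2 fold change was -1.23, and 2 to 7 passed when an embryo was left out. Only 2 passed without wild-type embryo 2 or mutant embryo 4, 3 without wild-type embryo 1 or mutant embryo 2 or 5, and 7 without embryo 3 of either genotype.

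*Ttr*, which encodes the transthyretin that the choroid plexus secretes, ranged widely. It stood at 124, 164, 5.74, 21.3 and 77.2 normalized CPM in wild-type embryos 1 to 5 and at 1.56, 1.14, 15.1, 8.14 and 10.2 in the mutants. In both genotypes the order of embryos by *Ttr* was close to their order by *Cux2*, with wild-type embryo 2 and mutant embryo 3 at the top. Its log2 fold change was -3.42 (SE 0.82, edgeR FDR 0.0512), and the call was lost without wild-type embryo 1 or 2 or mutant embryo 2, 4 or 5 (edgeR FDR 0.101 to 0.116), as it was with a replicate block (0.268).

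Deviations of *Cux2* from its genotype means correlated with those of the choroid plexus list at r = 0.92 over the 10 libraries, and at 0.89 without *Sulf1*. *Sulf1* encodes a heparan sulfate endosulfatase, made the larger part of the sum, and is not specific to this epithelium. Among single genes r was 0.92 for *Ttr*, 0.88 for the chloride channel gene *Clic6* and 0.82 for *Otx2*, a homeobox gene of choroid plexus identity. It was -0.11 for the carbonic anhydrase gene *Car12* and -0.53 for the water channel gene *Aqp1*. For *Sulf1* it was 0.92. The remaining genes of the list lay at 0.48, 0.47, 0.28, 0.25 and 0.15 or between 0.67 and 0.74. *Otx2*, *Ttr* and *Clic6* had the highest wild-type means after *Sulf1* (131, 78.3 and 63.1 normalized CPM), so these genes weigh most in the sum. The CH list followed at 0.87, whereas neurons (-0.34), mesenchyme and meninges (-0.54), endothelium (-0.13), red blood cells (0.19), microglia (0.49) and cortical neuroepithelium (-0.19) were further from *Cux2*. *Cux1* deviated with the choroid plexus list at r = 0.24 and with the CH list at 0.32, and, of the cell type lists, most strongly against endothelium (-0.64) and red blood cells (-0.64). These correlations share libraries and scaling, and they are descriptions.

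When the mean log2 level of these choroid plexus genes entered the fit as a covariate, the log2 fold change of *Cux2* was -0.52 (edgeR FDR 0.565), and with the list short of *Sulf1* it was -0.56 (FDR 0.559). That covariate was itself correlated with genotype (r = -0.77 over 10 libraries), so its part and that of the mutation cannot be told apart in this fit. In bulk samples, fewer cells of a type and less RNA per cell cannot be told apart either. With the mean level of the neuron list as a covariate, *Cux2* still passed (-1.27, edgeR FDR 0.0521). Among the Y-positive libraries alone, with 1 wild-type embryo against 5 mutants, it passed at -1.68 (edgeR FDR 0.0885), where the lone embryo is assumed to vary like the others. With *Xist* as a covariate the fold change was of like size (-1.61) and missed the threshold (edgeR FDR 0.245), in a fit in which 27 genes passed. Wild-type embryo 1, the Y-positive one, lay inside the range of the other wild-type embryos for *Cux2*.

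**Figure D4:**
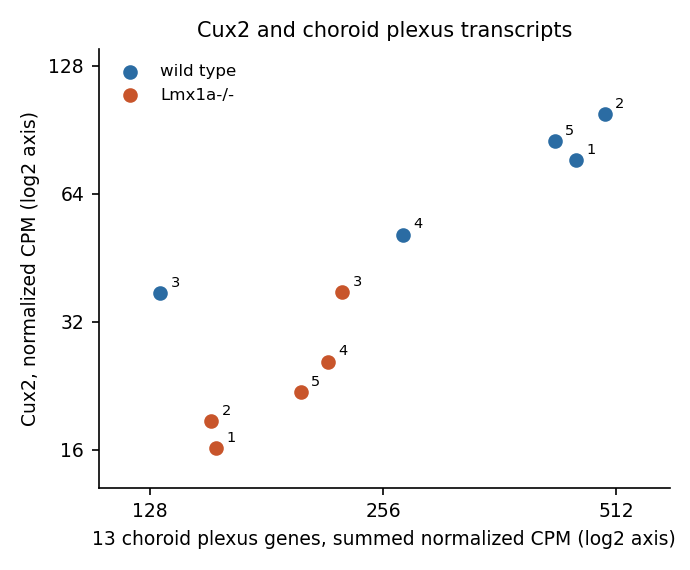
*Cux2* (vertical, normalized CPM) against the summed level of 13 choroid plexus genes without *Sulf1* (horizontal, normalized CPM) in the 10 numbered embryos, both on log2 axes. Wild-type embryos 1, 2 and 5 are high in both, and the mutants other than embryo 3 are low in *Cux2*. Wild-type embryo 3 has the lowest sum (132) and *Cux2* at 37.3. Mutant embryos 1 and 2 have sums of 156 and 154 and *Cux2* at 16.1 and 18.7. With *Sulf1* in the sum this order turns, to 450 for wild-type embryo 3 and 364 and 353 for these mutants.

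Lists of other tissues moved as follows, beside 2.29% of all tested genes lower and 1.72% higher. Of 9 cortical neuroepithelium genes 2 rose, the intermediate filament gene *Vim* (log2 fold change 0.87, edgeR FDR 0.00183) and the homeobox gene *Emx2* (0.65, edgeR FDR 0.0356), and the median was 0.38. Without wild-type embryo 3 the count was 4. For the counts that follow, 3545 of all 21664 tested genes had an unadjusted p under 0.05. The likelihood ratio test passed 1360 of all tested genes and DESeq2 1766. Of 10 neuron genes, 8 endothelium genes and 8 microglia genes none passed edgeR's quasi-likelihood test, the likelihood ratio test or DESeq2. Their medians were 0.53, -0.37 and 0.16, with 3, 1 and 1 at an unadjusted p under 0.05. Of 9 tested red blood cell genes none passed (median -0.91), but 6 had an unadjusted p under 0.05, 4 passed with the likelihood ratio test and with DESeq2, 3 passed without wild-type embryo 3, and 1 passed without wild-type embryo 2 or 4 or mutant embryo 2, 3 or 5. Of 10 mesenchyme and meninges genes 2 fell, with a median of -0.51. This count was 1 without wild-type embryo 3 or mutant embryo 1 and 0 without wild-type embryo 1 or 4 or mutant embryo 2, 4 or 5. The summed neuroepithelium level was 973 to 1623 normalized CPM in wild type and 1923 to 2352 in the mutants, without overlap, and *Vim* made the larger part of the rise in its mean. The summed red blood cell level did not overlap either, at 643 to 1489 normalized CPM in wild type and 268 to 581 in the mutants. With the neuron list as a covariate *Cux1* had a log2 fold change of -0.08 (edgeR FDR 0.782), beside the *Cux2* value given above. The part of the neuroepithelium, red blood cells, endothelium, microglia, mesenchyme and meninges in the values of both paralogs was not tested.

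The genes around each paralog were read to see whether the fall of *Cux2* extended along the chromosome. Within 500 kb of the *Cux2* start 29 other genes were tested, and none passed edgeR's quasi-likelihood test. An unadjusted p under 0.05 was reached by 1, beside 3545 of all 21664 tested genes, and 1 passed with DESeq2, beside 1766. Their median log2 fold change was -0.05 and they lay between -1.02 and 0.28. The nearest upstream, the phosphatase gene *Ppp1cc*, starts 108 kb away and had a log2 fold change of -0.01. Downstream, the antisense gene *Gm3970* lies within *Cux2* (-0.06, at most 63 counts in a library), and *Pheta1*, which encodes an endosomal protein, starts 201 kb away (0.11). Around *Cux1* 20 genes were tested and none passed by edgeR, the likelihood ratio test, DESeq2 or an unadjusted p under 0.05, with a median of -0.25 and a range from -0.82 to 1.45. Of the genes inside *Cux1*, *Gm38082* had up to 709 counts in a library and a log2 fold change of -0.10. The exons of *Cux2* share no base with another annotated gene, whereas 394 exon bases of *Cux1* are shared with the antisense gene *Gm16599*, which had at most 33 counts in a library.

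**Figure D5:**
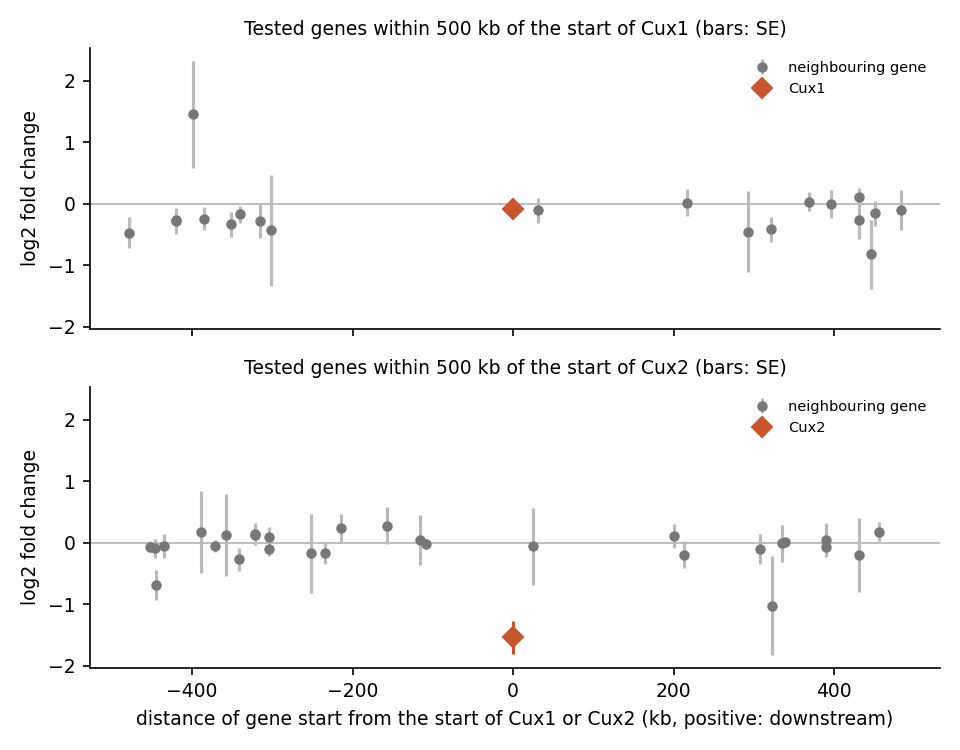
Log2 fold change (*Lmx1a-/-* over wild type) of the tested genes within 500 kb of *Cux1* (upper) and *Cux2* (lower), against the distance of each gene's start in kb, with bars of 1 SE. The diamond of *Cux2* at -1.54 lies below all of its 29 neighbours, the lowest of which is at -1.02, while *Cux1* at -0.08 lies among its 20 neighbours.

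Genes whose profile was most like that of each paralog were sought among 11548 tested genes with a mean of at least 5 normalized CPM. Over all 10 libraries, genotype included, *Cux2* was followed most closely by *Pde1a* (r = 0.98), *Itpr1* (0.98), *Sulf1* (0.97), *Galnt14* (0.96) and *Tmem108* (0.96). All 5 fell in the mutants, which the choice by likeness to *Cux2* with genotype left in favours, so their fold changes and overlap are descriptions. *Pde1a*, a calmodulin-dependent phosphodiesterase gene, fell from 24.1 ± 9.39 to 8.86 ± 1.35 normalized CPM (log2 fold change -1.44, edgeR FDR 0.00765), and *Itpr1*, which encodes an inositol trisphosphate receptor, from 235 ± 61.3 to 109 ± 19.3 (-1.10, edgeR FDR 0.00639). *Galnt14*, a glycosyltransferase gene, fell from 33.6 ± 14.0 to 5.31 ± 1.87 (-2.65, edgeR FDR 0.00144). In *Pde1a*, *Itpr1*, *Galnt14* and *Tmem108* every mutant lay below every wild-type embryo, unlike in *Cux2*, and in each of them wild-type embryo 3 was again the lowest of its genotype.

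With genotype means removed, the genes most like *Cux2* were *Apcdd1*, a Wnt inhibitor gene (r = 0.96), the cystine transporter gene *Slc7a11* (0.95), *Rbm47* (0.93), *Clmn* (0.93) and the ephrin gene *Efnb3* (0.93). None of these passed the test between genotypes. *Apcdd1* was at a mean of 493 normalized CPM in wild type and 457 in the mutants (log2 fold change -0.11, edgeR FDR 0.682). Each r stayed at 0.88 or above when any 1 library was left out, with the lowest values 0.882 for *Efnb3* and 0.884 for *Clmn*.

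The profile of *Cux1* was followed by other genes. Over all libraries these were *Ugdh* (r = 0.92), *Gnai1* (0.89), *Nhlrc2* (0.88), *Zcchc4* (0.88) and *Hcfc2* (0.88), none of which passed. With genotype means removed they were *Nadsyn1* (0.94), *Usf3* (0.93), the chromatin regulator gene *Ankrd11* (0.93), the RNA-binding protein gene *Rbm6* (0.92) and *Gm47087* (0.92). *Cux1* and *Cux2* themselves deviated from their genotype means with r = 0.02 over the 10 libraries, and no gene was in the lists of both.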

How the data were processed

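RNA of the laser-captured CH of each embryo was isolated with a Pico Pure kit and made into SMARTER libraries. The authors trimmed reads with Trimmomatic, mapped them to GRCm38 using STAR 2.7.1a, and deposited counts per Ensembl gene from HTSeq 0.11.2, unfiltered and not normalized. The strand setting of HTSeq is not given in the sources used here, so sense and antisense reads of overlapping genes cannot be told apart. Exact repeats (281 of 52508 rows) were dropped. No label says that embryos were from separate litters, and the p-values measure the spread between embryos. No 2 libraries of the same genotype agreed within sampling noise.

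Counts were scaled by TMM and genotypes compared with edgeR 4.0.16 (R 4.3.3, glmQLFit and glmQLFTest, no covariate) on genes that reached 10 counts in 3 or more libraries, with Benjamini-Hochberg FDR under 0.1 as the threshold. Levels are TMM-normalized CPM, and the SE is the fold change over the square root of F. The ratio of *Cux2* to *Cux1* used a pseudocount of 0.5 and an exact permutation test (scipy 1.17.1). Lists are described by counts and medians. Correlations used log2 CPM with a prior count of 2. Positions are those of GENCODE M21 on GRCm38, and start windows are from RefSeq, which held 3 windows for the paralogs.

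Both genes and all lists were chosen with earlier results of these data known. Named are both paralogs, the CUT class, *Lmx1a*, up to 3 genes of smallest p in each list, the nearest neighbours and the 5 genes of highest r. *Ctsl*, *Ncam1*, *Cdkn1b*, *Ccna2*, *Xlr4b*, *Otx2*, *Clic6*, *Aqp1* and *Gm16599* are named beyond this rule for their roles or positions, and were chosen after their values were seen. Some of what the rule names is not reported here. Alternatives were the likelihood ratio test, DESeq2 1.42.0, legacy = FALSE, robust dispersions, RLE, upper quartile and library size scaling, other filters, FDR 0.05, a replicate block, covariates (*Xist*, choroid plexus, neurons), Y-positive libraries alone, mitochondrial genes left out and each embryo left out. In simulated counts of 21044 genes for 5 against 5 libraries, the main test recovered 81% of 200 genes changed by 1.5 on the log2 scale, and 8.99% of its 178 calls were false.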

Additional observations from a re-analysis of the deposited data

Results flagged for a closer look

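In wild type, *Lmo4* reached 47.8 normalized CPM in embryo 4, where the next highest embryo had 22.9, a gap of 0.799 of the whole range. *Car12* reached 33.8 normalized CPM in the same embryo, with 13.7 in the next highest and a gap of 0.849 of the range. Both exceeded the critical value of Dixon's test for 5 samples, and neither paralog had such a value. They were 2 of 56 groups examined, and chance flags about 1 in 20.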

How the results depend on the processing

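*Cux2* was lower under all 27 alternatives and past the threshold in 24, with log2 fold changes of -1.76 to -1.39 as embryos were left out. It missed the threshold with the *Xist* covariate (-1.61, edgeR FDR 0.245), the choroid plexus covariate (-0.52, FDR 0.565) and that covariate without *Sulf1* (-0.56, FDR 0.559), which was chosen after seeing the data; the first 2 covariates were correlated with genotype at r = -0.83 and -0.77. The cause was not tested. *Cux1* passed in none of 27 and turned sign with the *Xist* covariate (0.0391) and in Y-positive libraries alone (0.026), with -0.12 to -0.04 as embryos were left out. The ratio of *Cux2* to *Cux1* lay between -1.66 and -1.32 as embryos were left out (exact permutation p 0.00794 to 0.0317). Embryo numbers did not pair the libraries: deviations of same-numbered embryos had r of -0.201 to 0.0144, and 0 of 5 matched best with their own number. With the replicate block *Cux2* passed (-1.53, edgeR FDR 0.0631), 601 genes passed, and the ratio kept its difference of -1.44 with p = 0.125 in an exact sign-flip test.

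The 870 genes past the threshold became 1360 with the likelihood ratio test, 1766 with DESeq2, 448 at an FDR of 0.05, 27 with the *Xist* covariate, 37 and 41 with the choroid plexus covariate with and without *Sulf1*, 377 with the neuron covariate, 130 in Y-positive libraries alone, and 451 to 1059 as embryos were left out. The lowest were without mutant embryo 4 (451) and wild-type embryo 1 (504), then mutant embryo 5 (546), wild-type embryo 2 (551) and mutant embryo 2 (578). *Ttr*, itself part of both choroid plexus covariates, turned to 0.54 and 0.42 with them, and *Satb1* ranged from -0.00389 to 0.0748 as embryos were left out. Of 675 values for 25 of the other named genes, 115 lost and 7 gained the threshold and 3 turned sign.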
